A study of Homo sapiens with 12 samples.

Results

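HCT116, an established human colorectal carcinoma cell line, was profiled by ChIP-seq, the sequencing of DNA pulled down with an antibody to a histone mark, for monomethylated lysine 9 of histone H3 (H3K9me1). The wide H3K9me1 regions described here are the listed regions of at least 2 kb on chromosomes 1, 2, 6, 7, 10, 12, 16 and 17, the 8 chromosomes used from every list. They were chosen by their length alone, and numbered 10708 of the 1295587 H3K9me1 regions listed on these chromosomes. The cells of the 2 restricted libraries (restricted A and B) had been washed and kept for 24 hr in methionine-free RPMI-1640 with serum, and those of the 2 control libraries (control A and B, 0 hr) had not. All cells were of passage 19. The libraries of trimethylated lysine 9 (H3K9me3) from the same times and letters were used only for position. As control cells were sampled only at 0 hr, effects of restriction and of the added day of culture cannot be told apart. The labels do not tie the letters to separate cultures, so every p-value speaks only of the spread among 4 libraries, part of which may be technical. An exact two-sided permutation test on 2 against 2 libraries cannot go below p = 0.33.

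Methionine is converted to S-adenosylmethionine, the methyl donor of histone methyltransferases, and depletion of methionine lowers that donor. H3K9me1 is the lowest methylation state of the residue. It can be laid down by the same enzymes that carry H3K9 on to dimethylation, the G9a and GLP methyltransferases, and in human cells it has been mapped to transcribed, gene-rich chromatin. H3K9me3 marks constitutive heterochromatin, such as the sequence around centromeres, and silenced repeats. The question the design sets for the wide regions is whether long unbroken stretches of H3K9me1 were as many, as strong and in the same places before and after depletion. No genome sequence or gene annotation of build hg19, which all coordinates refer to, was used, so no region is assigned to a gene, exon or intron, and no bases are shown.

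Per the file headers, the libraries held 39452512 reads (restricted A), 35134998 (restricted B), 30952210 (control A) and 31683422 (control B). Restricted A stood apart from the other libraries. It listed 186609 regions on the 8 chromosomes, against 394290 in restricted B, 330926 in control A and 383762 in control B, and covered 72.2 Mb, against 187 Mb in restricted B, 156.96 Mb in control A and 191 Mb in control B. It also had the most reads for its input, with 1.67 H3K9me1 reads for each input read kept, against 1.25 in restricted B, 1.12 in control A and 1.29 in control B. The part of these differences in the results was not tested. Without restricted A, the differences between restricted and control given below were -918.5 for the number of wide regions, -2.40 Mb for their length and -3.19 per 1000 for their share. Within H3K9me1 the letter coincided with the lane number in the headers, so ratios of A to A and of B to B are within a lane number. Whether libraries with the same lane number shared a sequencing run was not checked.

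Wide regions were fewer in both restricted libraries than in either control, but restricted B and control A were nearly level. There were 339 wide regions in restricted A and 2844 in restricted B, against 2875 in control A and 4650 in control B. Restricted A thus lay far below the other libraries, and control B well above them. The mean number was 1591.5 ± 1771 in restricted and 3762.5 ± 1255 in control libraries (SD, n = 2 each). The difference of -2171 was less than 2 SDs of either group (exact two-sided permutation p = 0.33). The ratio of restricted to control was 0.118 for the A libraries and 0.612 for the B libraries.

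The length under wide regions followed the same order. It was 0.805 Mb in restricted A and 6.94 Mb in restricted B, against 7.14 Mb in control A and 11.6 Mb in control B, a difference of means of -5.47 Mb (exact two-sided permutation p = 0.33). This was 1.11% and 3.71% of all listed H3K9me1 length in restricted A and B, and 4.55% and 6.04% in control A and B. Wide regions were a small fraction of the listed H3K9me1 length in every library.

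Wide regions were also counted as a share of the listed regions. This share does not set aside how densely a library lists regions, as it rose with local coverage within each library (below). It was 1.82 per 1000 in restricted A (95% Wilson interval 1.63 to 2.02) and 7.21 per 1000 in restricted B (6.95 to 7.48). The shares were 8.69 per 1000 in control A (8.38 to 9.01) and 12.1 per 1000 in control B (11.8 to 12.5). These intervals cover counting error only. None of the 4 intervals overlapped another, and both restricted libraries lay below both controls. The means differed by -5.89 per 1000 (exact two-sided permutation p = 0.33), with a ratio of restricted to control of 0.209 for A and 0.595 for B. By chromosome, both restricted libraries lay below both controls on 6 of the 8 chromosomes (75% of those compared). On chromosomes 6 and 7 restricted B lay between the controls, and restricted A lay below both controls on all 8.

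**Figure D1:**
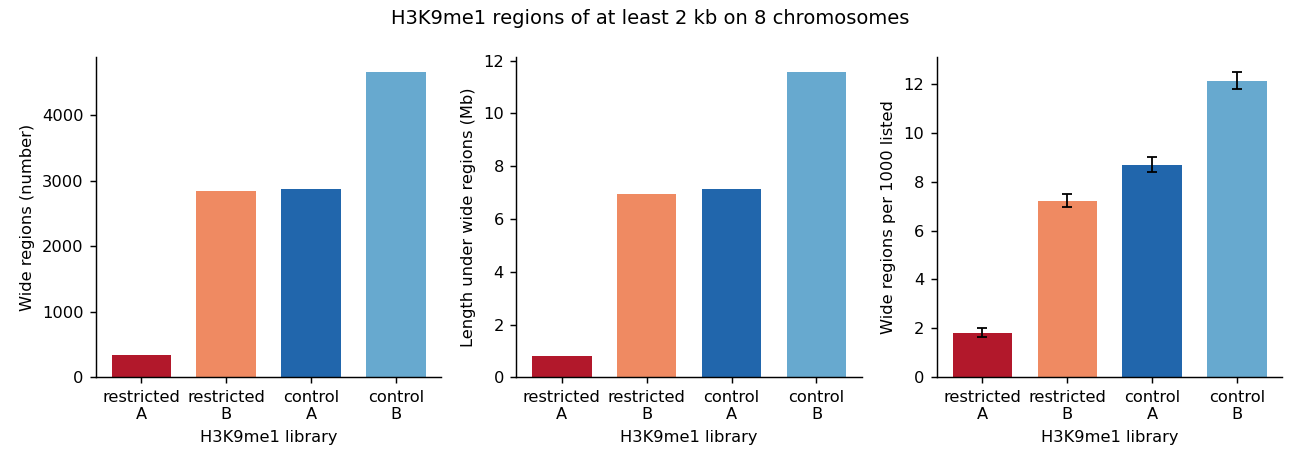
Number of H3K9me1 regions of at least 2 kb, their summed length (Mb) and their number per 1000 listed regions in each of the 4 libraries on 8 chromosomes, with 95% Wilson intervals on the third panel. Restricted A is the lowest bar in every panel at 339 regions and 1.82 per 1000, and restricted B and control A are nearly level in number at 2844 and 2875.

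The regions that passed the limit were of like width in all libraries. Their median width was 2250 bp in restricted A and 2289.5 bp in restricted B, against 2321 bp in control A and 2322 bp in control B. Regions of 3 kb or more numbered 23 and 303 in restricted A and B, against 371 and 591 in control A and B. Those of 4 kb or more numbered 3 and 40 in restricted A and B, against 57 and 89 in control A and B. The widest single regions were 5648 and 5876 bp in restricted A and B, and 6299 and 6604 bp in control A and B. Counts in each tail class thus kept the order of the total, while the class just below the limit did not: with the limit at 1500 bp, restricted B had 9606 regions and control A 8840, beside 1456 in restricted A and 13014 in control B.

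Just inside the limit, from 2000 to 2099 bp, there were 93 and 590 regions in restricted A and B, against 582 and 912 in control A and B. Just outside, from 1900 to 1999 bp, there were 112 and 794 in restricted A and B, against 734 and 1029 in control A and B. Median pileup, the authors' read coverage averaged over a region, was 2.72 inside and 2.71 outside in restricted A and 2.95 and 2.94 in restricted B. It was 3.84 and 3.8 in control A and 2.86 and 2.88 in control B. The limit therefore cut a continuous range of widths, with no step in signal across it.

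**Figure D2:**
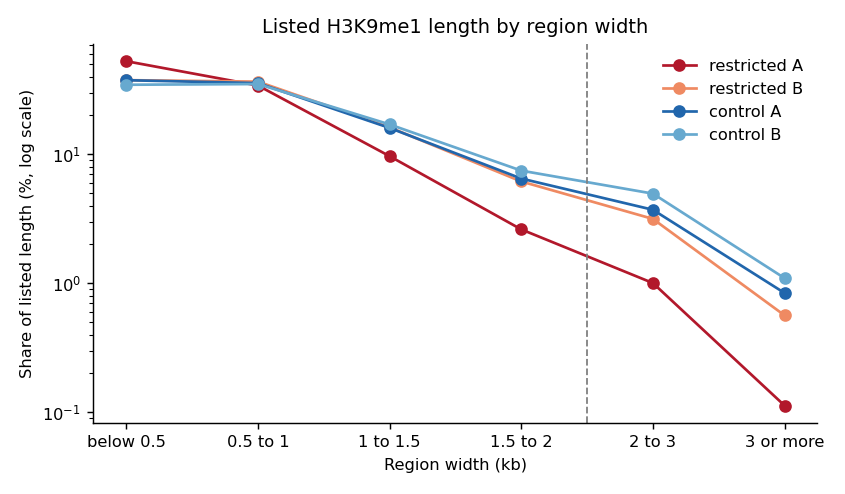
Share of the listed H3K9me1 length (%, log scale) in 6 classes of region width (kb) for each library, with the dashed line at the 2 kb limit. The line of restricted A starts highest, at 52.6% below 0.5 kb, and ends lowest, at 0.113% from 3 kb, while restricted B follows control A up to 1.5 to 2 kb (6.14% and 6.47%) and lies below it at 3 kb or more (0.563% and 0.839%).

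Wide regions were weak in every library: they were long stretches of low enrichment and not tall peaks. Their median fold enrichment over local background, the authors' ratio, was 1.92 in restricted A and 1.90 in restricted B, against 2.04 in control A and 1.88 in control B. The restricted values lay between the control values (difference of means -0.0529, exact two-sided permutation p = 1). The highest mean −log10 p of any wide region was 2.58 and 2.69 in restricted A and B, and 2.62 and 2.76 in control A and B. No wide region thus reached, averaged over its length, the strong threshold of p = 0.0001 that the authors' calls used beside the weak one of 0.1. A mean −log10 p of 2 or more was held by 7 and 4 wide regions in restricted A and B, and by 40 and 3 in control A and B.

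Median pileup of the wide regions was 2.80 in restricted A and 2.99 in restricted B, against 3.97 in control A and 2.89 in control B. Control A was alone in being high. Pileup was deposited at the depth of the smaller of ChIP and input, so it was also set per 1000000 of those reads, at 0.125 and 0.113 in restricted A and B, against 0.150 and 0.124 in control A and B. Restricted A and control B did not differ visibly on that scale, and the groups overlapped (difference of means -0.0178, exact two-sided permutation p = 0.667). Wide regions exceeded the narrower ones of their own list in median pileup by a ratio of 1.08 and 1.04 in restricted A and B, and of 1.17 and 1.07 in control A and B.

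A few wide regions had far higher coverage without high enrichment. Pileup reached 10 in 2 wide regions of restricted A and 8 of restricted B, against 8 of control A and 0 of control B. At chr2:92317315-92319481, beside the centromere gap, restricted B had a pileup of 69.08 and control A one of 72.86, with fold enrichments of 1.32 and 1.35. The local background in the authors' calls was therefore high there too. Of the 8 such regions in restricted B, 2 lay within 5 Mb of a centromere gap, and of the 8 in control A, 4 did.

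Wide regions lay where listed H3K9me1 was dense, and this held within each library. In 1 Mb bins with 5 to 10% of their length covered by regions of any width, wide regions numbered 1.81 and 1.14 per 1000 listed in restricted A and B, against 1.58 and 1.83 in control A and B. In bins covered at 10 to 15%, they numbered 6.23 and 3.89 per 1000 in restricted A and B, against 5.43 and 4.53 in control A and B. The groups overlapped in both classes through restricted A, while restricted B lay below both controls in each. At 15 to 20%, restricted B had 7.99 per 1000 (95% Wilson interval 7.63 to 8.37), against 9.51 (9.01 to 10.0) in control A and 9.76 (9.13 to 10.4) in control B. At 20 to 25%, restricted B had 13.1 (12.2 to 14.1), against 16.8 (15.7 to 17.9) in control A and 16.9 (16.3 to 17.6) in control B. Restricted B, the only restricted library with more than 1 bin in the 2 densest of these classes, thus lay below both controls in every class given here. In restricted A, 1219 of 1269 bins were covered at under 10%, against 212 in restricted B, 456 in control A and 354 in control B. Because width and coverage come from the same regions, this relation is a description, and its part in the lower counts was not tested.

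**Figure D3:**
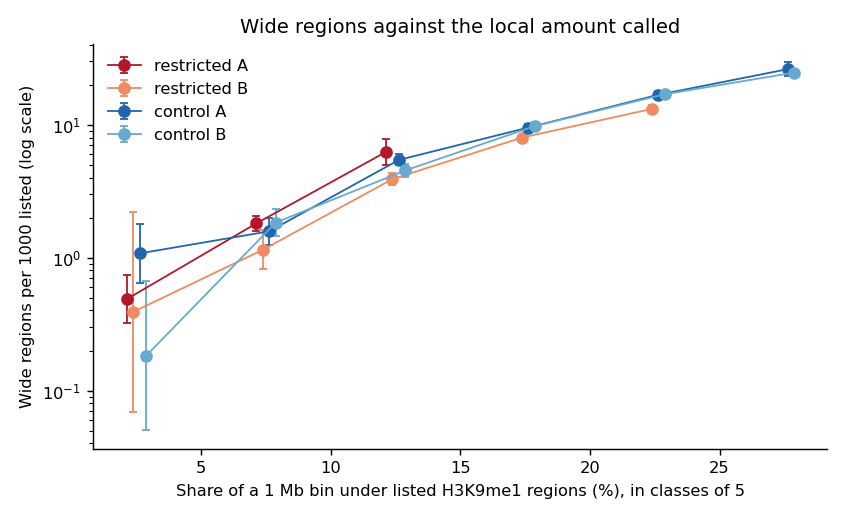
Wide H3K9me1 regions per 1000 listed regions against the share of a 1 Mb bin covered by regions of any width (%), for classes with at least 20 bins, with 95% Wilson intervals. The 4 lines climb up to 10 to 15%, where they lie between 3.89 (restricted B) and 6.23 (restricted A). Restricted B lies below both controls in each class from 5 to 10% up to 20 to 25%.

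Wide regions were also spaced apart differently. The median distance to the nearest other wide region of the same library was 524 kb in restricted A and 104.5 kb in restricted B, against 66.2 kb in control A and 43.8 kb in control B. Another wide region lay within 100 kb for 15.9% and 49.0% of them in restricted A and B, against 61.3% and 73.5% in control A and B. Restricted B and control A had nearly the same number of wide regions, yet those of restricted B were spread over 920 of 1269 bins of 1 Mb and those of control A over 790. The tenth of bins richest in wide regions held 30.3% of them in restricted B and 37.9% in control A, beside 68.4% in restricted A and 32.3% in control B.

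Location was measured as relative density, the share of a window covered by wide regions divided by the share of the 8 chromosomes so covered in the same library, so that 1 is the library's own average. In 15 gene-dense windows set by hand in whole Mb (106 Mb, 8.39% of the chromosomes), relative density was 3.18 in restricted A and 1.21 in restricted B, against 2.26 in control A and 1.91 in control B. Wide regions were above their average there in all 4 libraries, resting on 90 and 282 regions in restricted A and B and on 537 and 727 in control A and B. The 2 restricted libraries lay on opposite sides of the controls (difference of means 0.109, exact two-sided permutation p = 1), and without restricted A the difference was -0.875. Restricted A lay above both controls in 10 of the 15 windows, and restricted B below both in 14. Both restricted libraries lay below both controls in 3 windows (20%), beside 15.6% of the 5 Mb bins described below. In 17q21 the density was 6.80 and 1.07 in restricted A and B, against 3.16 and 2.69 in control A and B. In 16p11.2 it was 5.32 and 1.26 in restricted A and B, against 1.84 and 2.44 in control A and B. The window 16p13.3 was the exception for restricted B, with 3.03 and 1.26 in restricted A and B, against 1.13 and 0.50 in control A and B.

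In 13 gene-poor windows (10.7% of the chromosomes) wide regions were depleted in all libraries, least in restricted B. Relative density was 0.158 in restricted A and 0.347 in restricted B, against 0.120 in control A and 0.152 in control B. The value of restricted A rested on 6 regions, with 7 windows holding none, and those of restricted B, control A and control B on 109, 39 and 79. The difference of means was 0.116 (exact two-sided permutation p = 0.33); it was 0.211 without restricted A and 0.0216 without restricted B. Restricted B lay above both controls in 11 of the 13 windows. Both restricted libraries did in 5 (38.5%), beside 15.6% of the 5 Mb bins described below. In each of these 5 windows restricted A held 1 wide region, so its place above the controls rests on single regions. Unlike the windows, the bins were limited to those with a wide region in at least 2 libraries, so the 2 shares are not alike. In 2q32 there were 1 and 13 wide regions in restricted A and B, against 3 and 3 in control A and B. In 7q31.1 there were 1 and 13 in restricted A and B, against 1 and 3 in control A and B. The ratio of gene-dense to gene-poor density was 20.2 in restricted A and 3.49 in restricted B, against 18.9 in control A and 12.5 in control B. For regions of any width it was 2.1 and 1.39 in restricted A and B, against 3.21 and 2.85 in control A and B. The ratio was thus higher for wide regions than for regions of any width in each library. Wide regions are part of the same lists and grew more frequent with local coverage, so these ratios are not independent. For regions of any width both restricted libraries lay below both controls.

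**Figure D4:**
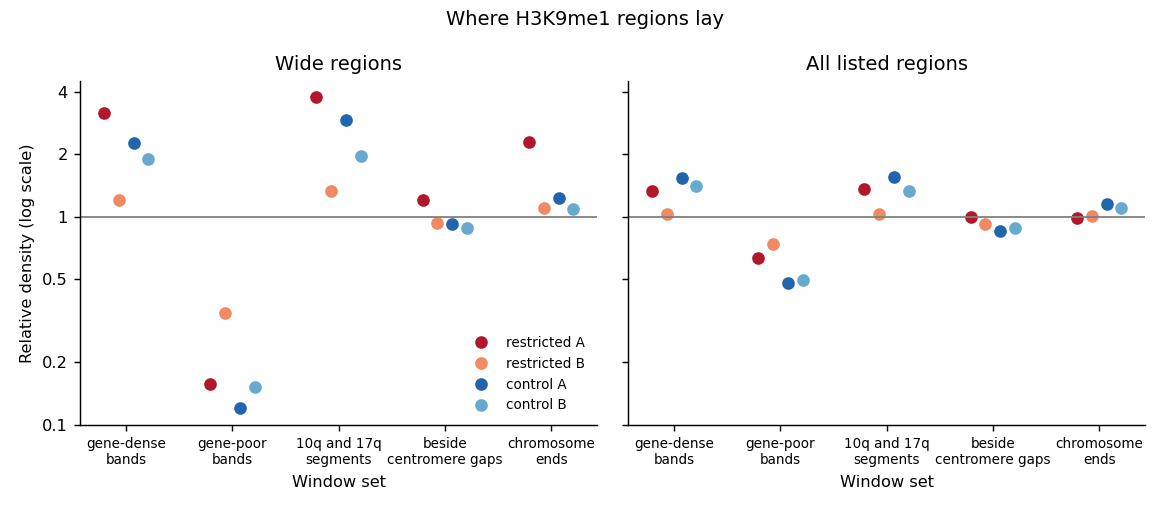
Relative density of wide H3K9me1 regions (1 is the library's average) in the sets of hand-set windows, by library. In gene-dense windows restricted A (3.18) lies above and restricted B (1.21) below the controls (2.26 and 1.91), and in gene-poor windows every library lies below 1, with restricted B the highest at 0.347.

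Chromosome 17, the richest in genes of the 8, showed the same split. Its relative density was 3.61 in restricted A and 1.06 in restricted B, against 2.31 in control A and 1.71 in control B, with 76, 190, 415 and 509 wide regions in that order. Across the 8 chromosomes, the density of wide regions and protein-coding genes per Mb (counted in a RefSeq annotation of GRCh38) had a Pearson r of 0.918 (restricted A) and 0.0371 (restricted B), against 0.817 in control A and 0.855 in control B. Spearman's rho was 0.714 and -0.167 in restricted A and B, against 0.429 in each control. These are descriptions over 8 chromosomes of 1 library each, and chromosome 17 is the point farthest out in gene density. HCT116 is known to carry gained copies of parts of 10q and 17q. In those segments relative density was 3.8 and 1.34 in restricted A and B, against 2.93 and 1.96 in control A and B. In the gene-dense windows outside them it was 2.84 and 1.25 in restricted A and B, against 1.92 and 1.79 in control A and B, so the order of the libraries was the same without the gained segments (a split chosen after seeing the data).

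Within 5 Mb of the centromere gaps, wide regions were near their average: 1.21 and 0.940 in restricted A and B, against 0.920 and 0.881 in control A and B (difference of means 0.174, exact two-sided permutation p = 0.33). Without restricted A the difference was 0.0390. From 3 kb the groups were farther apart, at 1.81 and 1.58 in restricted A and B, against 0.910 and 0.804 in control A and B, a difference of 0.837 that rests on the few widest regions. In the first and last 5 Mb of each chromosome the density was 2.29 in restricted A and 1.10 in restricted B, against 1.24 in control A and 1.09 in control B (difference 0.533, exact two-sided permutation p = 0.667). At the 2 kb limit only restricted A stood out at chromosome ends, and without it the difference was -0.0622. From 3 kb both restricted libraries lay above both controls, at 4.19 and 1.45 in restricted A and B, against 1.10 and 1.10 in control A and B (difference 1.72). Both restricted libraries lay above both controls at 4 of the 16 ends (25%), beside 15.6% of the 5 Mb bins described below.

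Clusters of related genes, in windows of a few Mb, held from none to 33 wide regions per library. The histone gene cluster at 6p22 held 4 and 8 in restricted A and B, against 2 and 12 in control A and B, and the major histocompatibility complex held 3 and 22, against 29 and 33. The type II keratin cluster held 2 and 4 in restricted A and B, against 8 and 20 in control A and B, and the type I cluster 1 and 2, against 10 and 11. The HOXA cluster, which holds homeobox genes that set position along the body axis, held 0 and 3 in restricted A and B, against 3 and 5 in control A and B. Of the windows over very long genes at common fragile sites, LRP1B held 0 in every library, and PARK2 held 0 and 7 in restricted A and B, against 1 and 1 in control A and B. CNTNAP2 held 0 and 2 in restricted A and B, against 6 and 8 in control A and B. Restricted B thus lay below both controls in CNTNAP2 and above both in PARK2, while restricted A lay below both in each. WWOX held 0 and 0 in restricted A and B, against 1 and 1 in control A and B, and CTNNA3 held 1 and 4, against 0 and 3. In the keratin clusters and the histocompatibility complex both restricted libraries held fewer wide regions than both controls. The CNTNAP2, WWOX and HOXD windows did so too (HOXD 0 and 1, against 3 and 3). Relative density in the type II keratin window was 3.44 and 0.797 in restricted A and B, against 1.74 and 3.06 in control A and B. In the type I window it was 1.62 and 0.516, against 2.41 and 1.42. Restricted B thus lay below both controls in each keratin window, and restricted A did not. Set against each library's own average, several of these windows were rich in wide regions. Relative density in the histocompatibility complex was 2.09 and 2.14 in restricted A and B, against 2.51 and 1.8 in control A and B, so the groups overlapped. In the epidermal differentiation complex at 1q21, which holds genes of the outer skin layer, it was 3.66 and 2.07 in restricted A and B, against 1.83 and 1.8 in control A and B. Those values rest on 2 and 9 wide regions in restricted A and B, and on 8 and 12 in control A and B.

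In a test over 5 Mb bins, none passed. Of 243 bins with a wide region in at least 2 libraries, 0 were higher and 0 lower in restricted libraries (limma on log2(relative density + 0.1), Benjamini-Hochberg adjusted p under 0.05; 0% of bins in each direction). The smallest adjusted p was 0.936, and 1 higher and 5 lower bins had an unadjusted p under 0.05. Both restricted libraries lay above both controls in 38 bins (15.6%) and below both in 38 (15.6%). Without restricted B, limma called 17 bins higher and 78 lower, a contrast of 1 restricted library with both controls in which the lone library was assumed to vary like the controls. The bin densities of the 2 controls had a Pearson r of 0.864 over the 243 bins and those of the 2 restricted libraries one of 0.322, which is a description of 4 libraries with unequal numbers of regions.

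Of the bins whose groups did not overlap, those with a mean relative density of at least 0.5 and the largest log2 differences are named here, none of which passed the test. At chr6:25000001-30000000, which holds the histone gene cluster, relative density was 3.98 and 1.40 in restricted A and B, against 0.723 and 0.862 in control A and B (log2 difference 1.48 ± 0.58 SE, limma adjusted p = 0.936). At chr16:30000001-35000000, beside the centromere gap, it was 5.79 and 0.725 in restricted A and B, against 0.526 and 0.494 in control A and B. The other bins of this kind on the higher side were chr1:105000001-110000000, chr16:1-5000000 and chr2:180000001-185000000. On the lower side, chr1:35000001-40000000 had 0 and 2.08 in restricted A and B, against 3.09 and 2.88 in control A and B (log2 difference -2.72 ± 1.19 SE, limma adjusted p = 0.936). The bin chr6:40000001-45000000 had 0 and 1.85 in restricted A and B, against 2.38 and 2.53 in control A and B. The others were chr1:50000001-55000000, chr2:20000001-25000000 and chr6:105000001-110000000. In all 5 bins on the lower side restricted A held no wide region, and it listed the fewest by far.

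The same place was seldom wide in more than 1 library. Overlapping wide regions of the 4 libraries merged into 10204 places, of which 9731 were wide in 1 library, 473 in at least 2 and 17 in at least 3. A single place was wide in all 4: chr2:222229828-222233509, a stretch of 3682 bp far from the centromere gap. Listed regions of any width covered 2.87 and 2.58 kb of it in restricted A and B, against 3.12 and 2.79 kb in control A and B. Pileup of its wide region was 3.94 and 5.65 in restricted A and B, against 6.99 and 3.71 in control A and B. Its fold enrichment was 2.29 and 2.33 in restricted A and B, against 2.39 and 1.98 in control A and B, above the median of wide regions in each library.

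Between pairs of libraries, the controls shared the most wide regions. The shares are not corrected for the length of the list overlapped, and a longer list offers more regions to overlap. Of the wide regions of control A, 7.76% overlapped one of control B, and 4.84% of those of control B overlapped one of control A. Of the wide regions of restricted B, 3.31% overlapped one of control A and 5.06% one of control B. In the other direction, 3.30% of control A and 3.12% of control B overlapped one of restricted B. Of the wide regions of restricted A, 25 (7.37%) overlapped one of restricted B, and 0.914% of those of restricted B overlapped one of restricted A. Places wide in both restricted libraries and neither control numbered 19, against 209 wide in both controls and neither restricted library. The same count by letter was 7 for both A libraries and 130 for both B libraries, and for the crossed pairs 7 (restricted A with control B) and 84 (restricted B with control A). No set that includes restricted A could exceed its 339 regions. With the 339 widest regions of each library, 3 places were wide in both restricted libraries alone and 6 in both controls alone.

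The control-only places had a median merged length of 3555 bp, and regions of any width covered 6.60% of them in restricted A and 25.5% in restricted B. Over the 8 chromosomes such regions covered 5.72% in restricted A and 14.8% in restricted B. Coverage of the places was 76.7% in control A and 77.5% in control B. All 4 libraries entered the choice, as a place had to be wide in both controls and in neither restricted library, so this contrast is partly set by the choice. The longest was chr1:37566404-37574972, with 0.195 and 1.81 kb covered in restricted A and B, against 7.29 and 5.72 kb in control A and B. The next, chr17:72439484-72447474, had 0 and 0.810 kb covered in restricted A and B, against 6.10 and 4.84 kb in control A and B. At chr1:153404458-153412388 the covered length was 0.122 and 3.86 kb in restricted A and B, against 5.12 and 6.90 kb in control A and B. The remaining places of the longest 5 were chr7:44501489-44508439 and chr10:122835592-122842467. Most of their length was thus below the listing threshold in restricted A, and parts of it were listed as narrower regions in restricted B.

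The 19 restricted-only places had a median merged length of 2910 bp, and were covered at 21.4% in control A and 17.6% in control B, beside 83.1% and 78.3% in restricted A and B. They had to be wide in both restricted libraries and in neither control, so this contrast too is partly set by the choice. Over the 8 chromosomes the covered share was 12.4% in control A and 15.1% in control B. The longest, chr1:148846812-148852459, lay 6.31 Mb from the centromere gap, with 5.65 and 2.76 kb covered in restricted A and B, against 0.114 and 0 kb in control A and B. It was also the widest region of restricted A, with a pileup of 7.71. Of the longest 5, 4 lay near a chromosome's end, among them chr16:90057216-90062639 and chr16:89074080-89079031 on 16q. That count covers the longest 5 only and was not made for all 19. The ends made up 6.33% of the chromosomes and held 13.9% and 6.93% of all wide regions of restricted A and B. At chr7:157723296-157728139 the covered length was 4.42 and 4.65 kb in restricted A and B, against 0.399 and 1.41 kb in control A and B. At chr12:131247745-131251980 it was 3.43 and 3.18 kb in restricted A and B, against 0 and 0.354 kb in control A and B.

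The widest region of restricted B, chr10:115334486-115340361, was wide in control A too, and 6.11% of it was covered in restricted A, 63.3% in control A and 55.4% in control B. The widest of control A, chr16:87693489-87699787, was covered at 12.4% and 23.3% in restricted A and B and at 8.97% in control B. The widest of control B, chr10:30316592-30323195, was covered at 14.1% and 11.5% in restricted A and B and at 33.4% in control A. The richest Mb of control B, chr10:114000001-115000000, held 3 and 3 wide regions in restricted A and B, against 10 and 21 in control A and B. The richest of control A, chr17:48000001-49000000, held 1 and 0 in restricted A and B, against 18 and 10 in control A and B. Restricted A was richest at chr17:57000001-58000000, with 8 wide regions there, against 1 in restricted B and 7 in each control.

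The places of wide regions were also measured in the libraries that did not choose them, using regions of any width. Coverage of such places was divided by the covered share of the 8 chromosomes in the measured library, so that 1 is what that library has on average. Places wide in control A were covered at 1.43 in restricted A and 1.70 in restricted B, against 2.24 in control B. Places wide in control B were covered at 1.55 in restricted A and 1.62 in restricted B, against 2.33 in control A. Both restricted libraries were thus less enriched at either control's places than the other control was. Places wide in restricted A were covered at 2.06 in restricted B, against 1.90 in control A and 1.85 in control B. Places wide in restricted B were covered at 1.95 in restricted A, against 1.96 in control A and 1.92 in control B. At restricted places the other restricted library and the controls were thus close to each other. In all 12 pairs the coverage was above the average of the measured library. Wide regions thus lay where the other libraries also listed H3K9me1 more often than on average, mostly as narrower regions. Relative coverage is a description over 4 libraries, without a test, as the pairs share libraries.

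**Figure D5:**
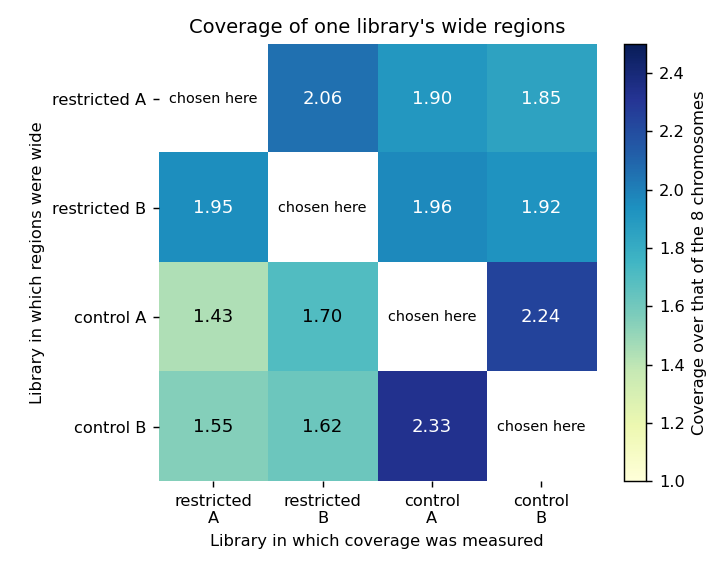
Relative coverage (1 is the measured library's average) of the places of wide regions, with the library that chose the places in rows and the library measured in columns. The darkest cells are the pair of controls (2.24 and 2.33), and the lightest are control places measured in restricted libraries (1.43 to 1.70).

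A small set of wide regions in restricted A coincided with H3K9me3 peaks. Of its 339 wide regions, 32 overlapped an H3K9me3 peak of the same time and letter (9.44%, 95% Wilson interval 6.77 to 13.02), against 3 of 2844 in restricted B, 3 of 2875 in control A and 0 of 4650 in control B. The H3K9me3 lists differed in size, with 811 and 259 peaks in restricted A and B, against 578 and 352 in control A and B. Among narrower regions of restricted A the share was 0.337%. Median width in that library was 2250 bp for wide and 324 bp for all listed regions, and a longer region can touch a peak more readily. The 32 regions had a median pileup of 3.9 and a median fold enrichment of 2.06, against 2.76 and 1.91 for the other wide regions of that library. Of these 32, 12 lay at chromosome ends, 5 within 5 Mb of a centromere gap, and 6 overlapped a wide region of another library. Regions of any width covered 42.0% of their length in restricted B, against 10.4% in control A and 16.98% in control B.

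The H3K9me1 libraries were told apart by their titles and antibody label, as the extraction protocol in the labels names only the H3K9me3 antibody. Both marks of a time and letter were called against the same input, and the part of that input in these overlaps was not tested. The overlap was therefore also measured with the H3K9me3 peaks of the other libraries, which had other inputs. Of the wide regions of restricted A, 4 overlapped an H3K9me3 peak of restricted B, 9 one of control A and 7 one of control B. With the H3K9me3 peaks of restricted A, the longest list, the overlapping wide regions numbered 16 in restricted B, against 3 in control A and 1 in control B. H3K9me1 regions of any width had a relative density in H3K9me3 peaks of the same time and letter of 6.39 (restricted A) and 1.98 (restricted B), against 0.601 in control A and 0.634 in control B. The difference of means was 3.57 (4.19 ± 3.11 in restricted and 0.617 ± 0.0228 in control libraries, SD, n = 2 each, exact two-sided permutation p = 0.33, a test added after the data were seen), and 1.37 without restricted A. Over the 4 H3K9me3 lists the density in restricted A ranged from 2.47 to 6.39 and in restricted B from 1.45 to 1.98, against 0.570 to 0.958 in control A and 0.473 to 0.666 in control B. With each of the 4 lists, H3K9me1 was thus listed more often than average inside H3K9me3 peaks in restricted libraries and less often than average in control libraries. For wide regions alone, the density over the 4 lists was 22.1 to 67.7 in restricted A, with 2.45 to 4.20 in restricted B, against 1.24 to 3.96 in control A and 0 to 0.0720 in control B.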

How the data were processed

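Broad peak lists of 4 H3K9me1 and 4 H3K9me3 libraries were used, with groups and letters from the labels; the inputs entered only through the authors' calls. Reads were handled with MACS2 2.1.1.20160309, Bowtie2 2.1.0 and SAMtools 1.5 on build hg19, per the submitters' processing notes. Each library was called against the input that shares its time and letter, per the file headers, with p cutoffs of 0.0001 (strong) and 0.1 (weak) for H3K9me1, at most 1 read per position, and the larger dataset scaled to the smaller. The estimated H3K9me1 fragment length was 100 or 101 bp, the size of a read, and broad regions are joined across gaps that depend on it: the smallest gap between listed regions was 401 bp in restricted A and 405 bp in the others. In the deposited lists pileup is a coverage signal, fold enrichment a ratio to local background, and p and q stand as −log10, each averaged over a region. The weak cutoff admits chance regions, and scaling and depth affect width.

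Computed here were widths, overlaps (at least 1 bp), relative densities and exact two-sided permutation tests over 6 relabellings. Chromosome length was taken from the last region end over all lists (1263 Mb). Bins of 5 Mb were tested with limma 3.58.1 (lmFit, eBayes with trend and robust) in R 4.3.3 after a check on simulated bins with known changes. Other steps used Python 3.11.15, pandas 2.3.3 and scipy 1.17.1; the interval code was checked on 300 random sets with 0 mismatches. Named were the 5 widest regions of each library (the widest printed), the 5 longest merged places of each kind, and, where fewer than 5 bins passed, the 5 bins per direction with the largest log2 difference among those whose groups did not overlap and whose mean relative density was at least 0.5. The width rule, windows and tests were chosen with earlier results of these data known. Alternatives were other width limits, a −log10 p minimum, joining, equal numbers of regions, other bin settings, the letter as a block and leaving out each library.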

Additional observations from a re-analysis of the deposited data

How the results depend on the processing

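Over 15 results, 116 alternative values kept their direction or, for counts, stayed within 1.5 times, 17 counts moved beyond that and 10 values reversed. The 116 include the values joined at 100 bp, which could not differ, and bin counts of 0 against 0, so the tally overstates stability. Size was not held: at chromosome ends the difference was 1.72 from 3000 bp, 0.752 with equal numbers and 5.48 at a mean −log10 p of at least 2, against 0.533, and beside centromere gaps 0.837 and 0.454 for the first pair of these settings, against 0.174. The lower number and length of wide regions in restricted libraries kept their direction under every alternative run, with differences in number of -3423.5 to -918.5 when a library was left out. None of the exact permutation tests could pass 0.05, so stability here means direction only. Restricting to a mean −log10 p of at least 2 left 7 and 4 wide regions in restricted A and B, against 40 and 3 in control A and B, and turned the difference in share to 1.52 per 1000, in pileup per 1000000 reads to 0.161 and beside centromere gaps to -0.810. In gene-dense windows the difference was -0.00981 from 1500 bp, -0.649 from 3000 bp, -0.211 with equal numbers of widest regions, and -0.875 to 1.09 leaving out a library. Leaving out a library gave -0.129 to 0.0232 for fold enrichment and -0.0622 to 1.13 at chromosome ends. Recurrence moved with how many regions were wide. From 1500 bp, from 3000 bp, at −log10 p of at least 2, with equal numbers, and with regions up to 500 bp apart joined (chosen after seeing the data), control-only places numbered 994, 12, 0, 6 and 803. Restricted-only places numbered 92, 3, 0, 3 and 57 in the same order, and places wide in at least 2 libraries 2634, 20, 0, 15 and 2000. Leaving out a library gave 0 to 17 bins higher and 0 to 78 lower, the counts above 0 being without restricted B. Without scaling the median log2 difference over bins was -1.97, against -0.25, with 0 calls. The bins could not be fitted at −log10 p of at least 2. With the letter as a replicate block, 0 bins were higher and 0 lower, with a smallest limma adjusted p of 0.128. Deviations of same-lettered libraries had a correlation of 0.0374 over bins. That value cannot show whether libraries of a letter share a culture or a preparation. Joining at 100 bp changed nothing, as no listed gap was that small. For the values moved or reversed by other width limits, the cause was not tested. At this depth the weak regions limit what a single place shows.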

Other observations

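Outside the 8 chromosomes the lists held 13 further chromosomes in restricted A, 11 in restricted B, 12 in control A and 2 in control B, so no test was run there. Wide regions on them numbered 299 and 2546 in restricted A and B, against 2424 and 788 in control A and B. Per 1000 listed regions this was 1.49 and 6.94 in restricted A and B, against 7.34 and 11.1 in control A and B, over unlike sets of chromosomes. Where both were listed, restricted B lay above control A on chromosomes 4, 13 and 21. It lay below control A on chromosomes 5, 8, 9, 11, 14 and 15. On chromosome 4 the share was 0.656 and 4.78 per 1000 in restricted A and B, against 4.09 in control A. On chromosome 11 it was 1.40 and 8.31 in restricted A and B, against 9.83 in control A. The widest regions on these further chromosomes measured 4868 and 8992 bp in restricted A and B, against 5959 and 6110 bp in control A and B. On chromosome 22, used from 3 of the lists, wide regions were 3.74 per 1000 in restricted A, against 11.6 in control A and 14.7 in control B.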
